A study of Mus musculus with 7 samples.

Results

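The genes described here are those of aromatase, the estrogen receptors and ovarian steroid synthesis, with the progesterone receptor membrane components, measured by RNA sequencing of mouse oocytes taken from secondary follicles. They were chosen by symbol: Cyp19a1, Hsd17b1, Hsd3b1, Cyp11a1, Star, Esr1, Esr2, Pgrmc1 and Pgrmc2, which are 9 of the 26019 gene rows of the deposited table. All 9 symbols were found, and all 9 passed the filter on low values (a normalised count of at least 1 in at least 3 libraries). The comparison is of 4 wild-type (WT) with 3 knockout (KO) libraries, each made from 5 pooled oocytes of the C57BL/6J strain. The deleted gene is Mfn2 in the series title and design text, while the genotype label and the collection protocol name Mfn1. The mice were 8 weeks old per the protocol, while the age label reads P1, and the design text counts 3 mice per group. The sources used here do not give which cells carried the deletion or what drove it. No further treatment is given for either group.

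Steroid synthesis starts when STAR delivers cholesterol to the inner mitochondrial membrane, where CYP11A1 cleaves its side chain to give pregnenolone. HSD3B1 turns pregnenolone into progesterone, theca cells make androgens from these products, and in granulosa cells CYP19A1 (aromatase) and HSD17B1 complete the synthesis of estradiol. Estradiol acts through the nuclear receptors ESR1 and ESR2, of which ESR2 is known as the main form of granulosa cells. PGRMC1 and PGRMC2 are heme-binding membrane proteins that bind cytochrome P450 enzymes and have been linked to progesterone responses.

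Cyp19a1 has 3 start sites in RefSeq, and its upstream sequences are shown because it had the clearest difference of the 9 genes. A gene-level count does not tell which start was used. The sequences are the 250 bases before each start on the minus strand of chromosome 9 (RefSeq, GRCm38.p6), written 5′ to 3′. Capitals mark AGGTCA, the half-site of several nuclear receptors, and TATAAA, the TATA box core, on either strand (TGACCT and TTTATA where the match is on the opposite strand).
Cyp19a1, start at 54268164, chr9:54268165-54268414: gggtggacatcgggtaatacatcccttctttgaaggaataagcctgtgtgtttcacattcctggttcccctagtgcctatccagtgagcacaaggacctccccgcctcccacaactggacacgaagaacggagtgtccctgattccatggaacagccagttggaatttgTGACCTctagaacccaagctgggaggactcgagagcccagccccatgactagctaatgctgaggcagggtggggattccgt
Cyp19a1, start at 54228914, chr9:54228915-54229164: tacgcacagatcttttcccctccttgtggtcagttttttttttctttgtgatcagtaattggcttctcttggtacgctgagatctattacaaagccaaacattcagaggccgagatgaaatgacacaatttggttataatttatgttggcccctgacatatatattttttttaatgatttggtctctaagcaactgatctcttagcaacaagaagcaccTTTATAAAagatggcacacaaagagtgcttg
Cyp19a1, start at 54193743, chr9:54193744-54193993: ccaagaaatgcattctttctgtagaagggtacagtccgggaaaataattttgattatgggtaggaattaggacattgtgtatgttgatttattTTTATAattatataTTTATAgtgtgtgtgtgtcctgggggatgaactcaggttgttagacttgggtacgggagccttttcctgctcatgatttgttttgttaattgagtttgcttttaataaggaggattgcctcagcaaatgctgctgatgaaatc

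The motif search covered the 300-base windows from 250 bases before to 50 bases after each start, on both strands. RefSeq windows matched 7 of the 9 genes (11 windows). AGGTCA occurred in 16.3% of all 32817 promoter windows, and among the 11 windows in that of the first Cyp19a1 start and in that of the Cyp11a1 start at chromosome 9, 58014952. CAAGGTCA, a longer form that contains AGGTCA and is bound by NR5A and estrogen-related receptors, occurred in 1.56% of all windows and in 0 of the 11. The consensus estrogen response element, GGTCA and TGACC with 3 bases between them (0.0701% of all windows), and the cyclic AMP response element TGACGTCA (1.79%) were also found in 0 of the 11. TATAAA was present in 13.6% of all windows and in those of the other two Cyp19a1 starts, beginning 29 bases before the start at 54228914.

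The libraries held 6676076 to 8343915 recovered reads. Mfn2 had 35.3, 35.1, 15.0 and 29.2 normalised counts in WT 1 to 4 and 7.27, 4.55 and 7.66 in KO 1 to 3 (limma adjusted p = 0.00571), and Mfn1 did not pass (adjusted p = 0.499). Oocyte RNA was abundant in every library: Gdf9, an oocyte-secreted growth factor, lay between 28129 and 34582. The 16 oocyte markers were not all so even: 1 was called, Ddx4, a germ cell RNA helicase, at 785 ± 165 in WT and 1904 ± 535 in KO (adjusted p = 0.00287), and their sum was highest in KO 2 (404310, beside 205900 to 281800 in WT). RNA of granulosa cells, which surround the oocyte in the follicle, was also unequal. The 19 of 23 granulosa markers with a WT mean under 50 summed to 235, 69.2, 154 and 153 in WT 1 to 4 and to 296, 895 and 776 in KO 1 to 3. The more abundant markers, outside this sum, were relatively closer between the groups. Means in WT and KO were 182 and 194 for Nr5a2, 213 and 212 for Cdh2 and 92.5 and 97.8 for Slc18a2. Serpine2 averaged 3088 and 3741. Of the weaker markers, Inhba was lower in KO on average (4.38 and 1.21). Fshr, at 9.09 and 6.56 in KO 2 and KO 3, was below WT 1 (14.3) and WT 3 (39.3). In KO 2 and KO 3, 14 of the 23 markers were above all 5 other libraries, among them Inha, the inhibin alpha subunit. Of the defining markers, Foxl2 was at 0 in WT 1 to 3 and at most 3.64 elsewhere, Amh at 0 in WT 2 to 4 and at most 8.18 elsewhere, and Fst at 0 in 4 libraries. The 8 theca and stroma markers in the table summed to 12.4 to 28.8 in WT and 24.1 to 41.8 in KO, with Cyp17a1, the theca enzyme of androgen synthesis, at 0 to 2.73. All 23 granulosa markers were above 0 in at least 1 library, and the most abundant, Serpine2, lay between 2619 and 4275. The 8 immune markers summed to 543 to 579 in WT and 187 to 280 in KO, mostly C1qb, at 533 in WT and 217 in KO on average. Of the others, Cd68 was higher in KO on average (12.4 and 18.4) and Csf1r lower (8.18 and 3.28). The part of the marker RNAs in the differences of the steroid genes was not tested.

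Of all genes, 1291 of 19227 tested genes (6.71%) differed between KO and WT, by limma on log2(normalised count + 1) with Benjamini-Hochberg adjusted p under 0.05. Of the 9 steroid genes 2, Cyp19a1 and Esr2, fell, where 3.63% of all tested genes were lower. In the other direction 0 of the 9 passed in limma (3.09% of all genes did), 0 in edgeR and 1, Hsd3b1, in DESeq2, and 6 of the 9, 2 of them higher in KO, had an unadjusted limma p under 0.05 (21.8% of all genes). The median log2 fold change of the 9 was -0.19, beside -0.01 over all tested genes. Every KO library lay below every WT library for 3 of the 9 genes, Cyp19a1, Esr2 and Cyp11a1 (9.83% of all tested genes), and above for 0 (9.37%). The genes thus did not move as a block.

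**Figure D1:**
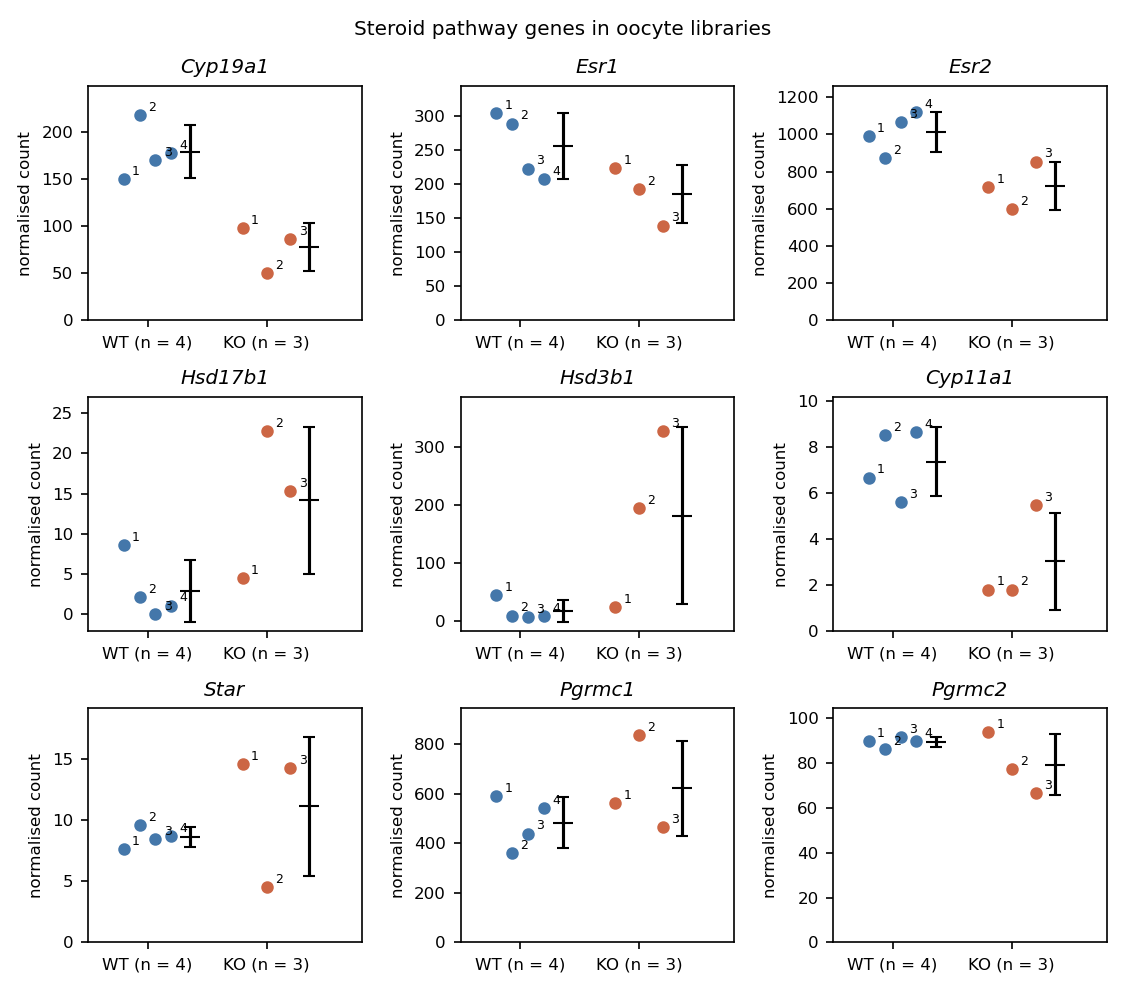
Normalised count (y axis, linear, 1 panel per gene) of the 9 genes in each library, with WT in blue and KO in orange; numbers are replicate numbers and black marks are the mean ± SD. Cyp19a1 lies between 151 and 218 in WT and between 50.0015 and 98.1 in KO, while Hsd3b1 and Hsd17b1 are highest in KO 2 and KO 3.

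Cyp19a1 (ENSMUSG00000032274.9; GRCm38 chromosome 9, 54165937 to 54268110, minus strand) encodes aromatase, which converts androgens into estrogens. It had 151, 218, 171 and 178 normalised counts in WT 1 to 4 and 98.1, 50.0015 and 86.4 in KO 1 to 3. The highest KO library was thus below the lowest WT library. WT averaged 179 ± 28.4 (SD, n = 4) and KO 78.2 ± 25.1 (SD, n = 3), a 2.29-fold lower level. Its log2 fold change was -1.23 (SE 0.23, 95% interval -1.70 to -0.76; limma adjusted p = 0.00251). Every one of the 7 fits on 6 libraries also called it, with log2 fold changes from -1.42 to -0.94. KO 2, the library with the largest sum of the weaker granulosa markers, had the lowest Cyp19a1 level, and KO 1, with the smallest such sum in KO, had the highest. The mean log2 level of the granulosa markers was higher in every KO library (3.58 to 4.65) than in every WT library (2.46 to 3.42), so genotype and granulosa RNA cannot be told apart. In bulk libraries fewer cells of a type and less RNA per cell cannot be told apart. The call was lost with KO 2 and KO 3 both left out (-0.85, adjusted p = 0.141), where the lone KO library is assumed to vary like WT. It was also lost with the mean log2 level of the granulosa markers as a covariate (-0.49, adjusted p = 0.845), a fit that called 0 of all 19227 genes (1308 at an unadjusted p under 0.05).

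Hsd17b1 (chromosome 11, 101078411 to 101080527, plus strand), which reduces estrone to estradiol, was near the limit of detection in WT. Its values were 8.58, 2.13, 0 and 1.08 in WT 1 to 4 and 4.54, 22.7 and 15.3 in KO 1 to 3. The 0 in WT 3 has an exact Poisson 95% upper limit of 3.45 normalised counts (counting error only). KO 2 and KO 3 were above all WT libraries and KO 1 was within the WT range. The log2 fold change of 2.20 (SE 0.70, 95% interval 0.73 to 3.67) did not pass (limma adjusted p = 0.0679). It passed without KO 1 (2.81, adjusted p = 0.0219) and without WT 1 (2.79, adjusted p = 0.0214). Its high libraries, KO 2 and KO 3, are those with the most granulosa marker RNA. The log2 fold change was 0.98 with both left out. It was 0.0891 with the granulosa covariate (SE 1.15, limma adjusted p = 0.996), a fit that cannot tell genotype and granulosa RNA apart.

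Esr2 (ENSMUSG00000021055.14; chromosome 12, 76120419 to 76177259, minus strand) encodes estrogen receptor beta and had the highest WT mean of the 9 genes per length. It had 992, 874, 1066 and 1119 normalised counts in WT 1 to 4 and 718, 596 and 853 in KO 1 to 3. The groups did not overlap, but KO 3 was close to the lowest WT library. The means were 1013 ± 106 (SD, n = 4) and 722 ± 129 (SD, n = 3), a 1.40-fold lower level in KO. Its log2 fold change was -0.50 (SE 0.15, 95% interval -0.80 to -0.19; limma adjusted p = 0.0446). This call was close to the threshold: it was lost in 6 of the 7 fits that left out 1 library, all but the one without KO 3, with adjusted p up to 0.207. As with Cyp19a1, the lowest value was that of KO 2, which had the largest sum of the weaker granulosa markers. Unlike for Cyp19a1, the highest KO value was that of KO 3, which had the next largest sum. The pseudogene row Gm7862, at 29.3 on average in WT and 17.3 in KO, overlaps Esr2 on the same strand, and the libraries do not keep strand. Of the 3435 stretches of 75 bases in Esr2, 0 also occur in transcripts of other genes.

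Esr1 (chromosome 10, 4611593 to 5005614, plus strand), estrogen receptor alpha, had 304, 289, 222 and 207 normalised counts in WT 1 to 4 and 223, 193 and 139 in KO 1 to 3. KO 1 lay within the WT range and KO 2 and KO 3 below it. A log2 fold change of -0.47 (SE 0.19, 95% interval -0.88 to -0.07) was close to that of Esr2 but did not pass (limma adjusted p = 0.155). It passed in 0 of the 7 fits that left out 1 library, where it ranged from -0.62 to -0.28. Per kilobase of exon, Esr2 was 16.7 ± 4.70 times as abundant as Esr1 in WT libraries (SD, n = 4) and 16.8 ± 7.00 times in KO libraries (SD, n = 3). The lengths sum all annotated exons, 3368 bases for Esr2 and 13661 for Esr1, so the size of this ratio depends on the annotation. The ratio ranged from 12.3 to 21.9 in WT and from 12.6 to 24.9 in KO, so the spread within each group was far larger than the difference between the groups. Both receptor RNAs were thus present in each library, with Esr2 the more abundant in all 7.

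Hsd3b1 (chromosome 3, 98852194 to 98859794, minus strand), which makes progesterone from pregnenolone, had the widest spread of the 9. Its values were 44.8, 9.59, 6.54 and 8.67 in WT 1 to 4 and 23.6, 195 and 327 in KO 1 to 3. KO 2 and KO 3 stood far above the rest, while KO 1 was below WT 1. WT averaged 17.4 ± 18.3 (SD, n = 4) and KO 182 ± 152 (SD, n = 3). The log2 fold change of 3.09 had an SE of 1.13 and a 95% interval of 0.25 to 5.93, and it did not pass (limma adjusted p = 0.197). Without KO 1 it passed (4.21, adjusted p = 0.00921), and DESeq2 called it on all 7 libraries (adjusted p = 0.0213) while edgeR did not (adjusted p = 0.162). Inha had 66.7, 18.1, 23.4 and 11.9 in WT and 54.5, 395 and 338 in KO. The same 4 libraries led both genes: KO 2 and KO 3 were highest, followed by WT 1 and KO 1. Adding the mean of the granulosa markers to the fit gave -0.40 (SE 0.91, limma adjusted p = 0.952). That fit called 0 of all 19227 genes and cannot tell genotype and granulosa RNA apart.

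**Figure D2:**
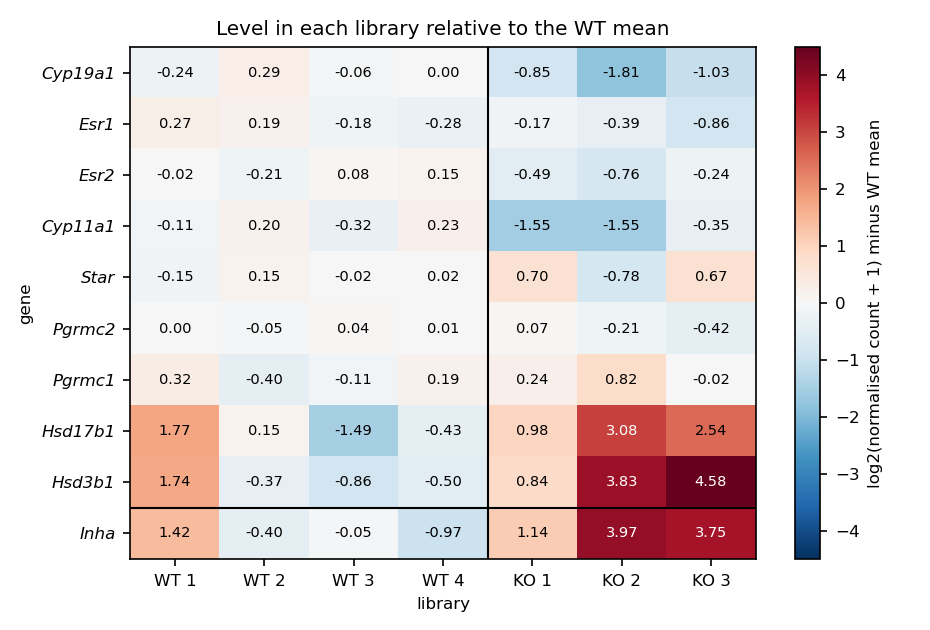
Each cell gives log2(normalised count + 1) of a gene (y axis) in a library (x axis) minus the WT mean of that gene; blue is below and red above the WT mean, and Inha, a granulosa marker, is added below the line. Hsd3b1 and Hsd17b1 are red in WT 1, KO 1, KO 2 and KO 3 like Inha, while Cyp19a1 and Esr2 are blue in all 3 KO libraries.

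Cyp11a1 (chromosome 9, 58006411 to 58027023, plus strand), the side chain cleavage enzyme, was nearly absent. It had 6.67, 8.52, 5.61 and 8.67 normalised counts in WT 1 to 4 and 1.82, 1.82 and 5.47 in KO 1 to 3. The groups did not overlap, but the closest libraries, WT 3 and KO 3, had 6 and 5 reads, with exact Poisson 95% intervals of 2.06 to 12.2 and 1.78 to 12.8 normalised counts (counting error only). The log2 fold change was -1.15 (SE 0.52, 95% interval -2.24 to -0.07; limma adjusted p = 0.199). The lincRNA row Gm17322 overlaps Cyp11a1 on the same strand, and it had 105 on average in WT and 104 in KO. Of the 75-base stretches of Cyp11a1, 1.48% also occur in Gm17322, and the counts do not tell to which row such reads were given.

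Star (chromosome 8, 25806555 to 25815982, plus strand), the carrier of cholesterol to the inner mitochondrial membrane, was also at a few reads per library. Its values were 7.63, 9.59, 8.41 and 8.67 in WT 1 to 4 and 14.5, 4.55 and 14.2 in KO 1 to 3. The KO libraries lay on both sides of the WT range. That range was narrower than counting error: WT 1, at 8 reads, had an exact Poisson 95% interval of 3.29 to 15 normalised counts. Its difference of 0.20 log2 units (SE 0.46, 95% interval -0.76 to 1.16) did not pass (limma adjusted p = 0.851), and it changed sign without KO 1 or without KO 3. No difference was detectable at this depth, and the interval holds values on both sides of 0.

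Pgrmc1 (chromosome X, 36598206 to 36606079, plus strand) was abundant and variable. It had 592, 360.0, 439 and 542 normalised counts in WT 1 to 4 and 561, 836 and 467 in KO 1 to 3. KO 2 was above all WT libraries, and KO 1 and KO 3 were within the WT range. KO minus WT on the log2 scale was 0.35 (SE 0.20, 95% interval -0.08 to 0.77; limma adjusted p = 0.339). Its paralog Pgrmc2 (chromosome 3, 41066326 to 41083046, minus strand) had 89.6, 86.3, 91.6 and 89.9 in WT 1 to 4 and 93.6, 77.3 and 66.7 in KO 1 to 3. WT had an SD of 2.23 around a mean of 89.3, and KO averaged 79.2 ± 13.5 (SD, n = 3). Counting error was wider than this WT spread. The exact Poisson 95% interval was 74.4 to 112 normalised counts in WT 3 and 51 to 85.7 in KO 3 (counting error only), and these overlap. The log2 fold change of -0.19 (SE 0.21, 95% interval -0.62 to 0.25) did not pass (limma adjusted p = 0.665). Per kilobase of exon, Pgrmc1 exceeded Pgrmc2 in all 7 libraries, with a ratio of 9.43 ± 1.94 over WT (SD, n = 4) and of 13.9 ± 4.44 over KO (SD, n = 3), and KO 2 at 18.9.

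**Figure D3:**
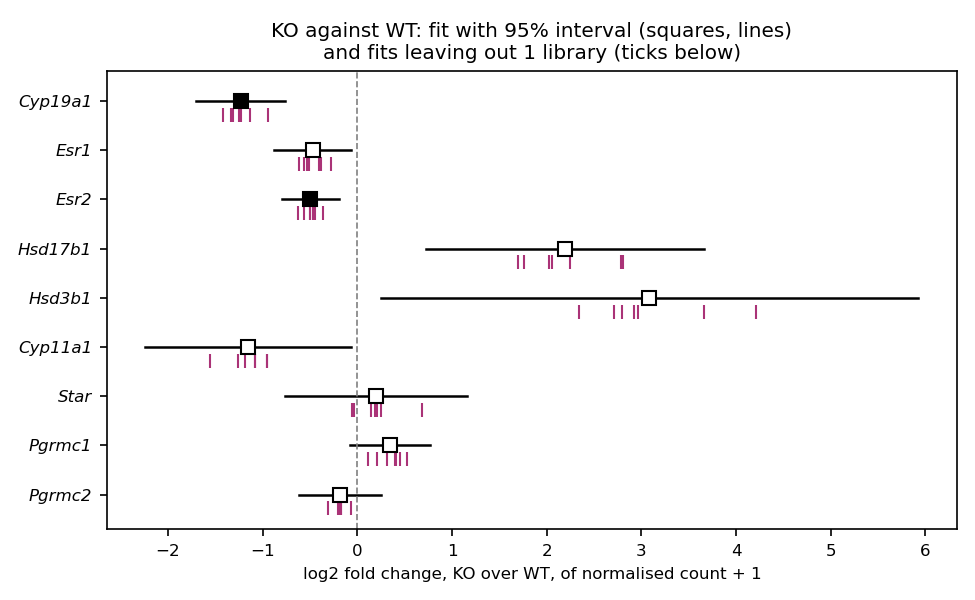
Log2 fold change of KO over WT (x axis) for each gene (y axis): squares are the limma fit on all 7 libraries, filled where adjusted p is under 0.05, lines its 95% interval, and ticks the 7 fits that each leave out 1 library. Only Cyp19a1 (-1.23) and Esr2 (-0.50) are filled, and the interval of Hsd3b1 is the widest (0.25 to 5.93).

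Levels were compared between the genes per kilobase of exon, using the summed exon length of each gene in GENCODE M21. In WT libraries the order was Esr2 (301 ± 31.4 normalised counts per kilobase, SD, n = 4), Pgrmc1 (260 ± 55.9), Cyp19a1 (39.7 ± 6.28), Pgrmc2 (27.6 ± 0.687), Esr1 (18.7 ± 3.52) and Hsd3b1 (9.38 ± 9.87). Hsd17b1 (2.20 ± 2.88), Star (2.08 ± 0.196) and Cyp11a1 (1.53 ± 0.309) came last. The WT ranges of neighbours overlapped for Esr2 and Pgrmc1, Esr1 and Hsd3b1, Hsd3b1 and Hsd17b1, and Hsd17b1 and Star, and were separate for the other 4 pairs. Esr2 exceeded 90.7% and Cyp19a1 67.5% of the 18339 tested genes with a length, while Cyp11a1 exceeded 17.8% and Star 21.7%. Thus Esr2 and Cyp19a1 were well represented in these oocyte libraries, and Esr1 lay lower (55.7%). Star and Cyp11a1, of the first steroid-forming steps, were low, and so was Hsd17b1 of the last step to estradiol (22.5%). In KO libraries Pgrmc1 (335 ± 103 per kilobase, SD, n = 3) was above Esr2 (214.5 ± 38.2) on average, though in KO 3 Esr2 was the higher (253 and 252). Cyp19a1 was at 17.3 ± 5.55 per kilobase (SD, n = 3), below Pgrmc2 (24.4 ± 4.17), and Hsd3b1 was at 98.0 ± 82.0.

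The genes with the most similar pattern were sought among 10015 genes with a mean of at least 20, by Pearson correlation of log2 values over the 7 libraries. The correlations are descriptions: the libraries share the WT and KO split and their size factors. Closest to Cyp19a1 were Snx7 (r = 0.98, Spearman rho 0.89), Dync1i1 (r = 0.98, rho 0.89) and Ighg2b (r = 0.98, rho 0.86). Dync1i1, a subunit gene of the motor protein dynein, had 44.8, 61.8, 49.5 and 42.2 in WT and 12.7, 5.46 and 10.9 in KO. Closest to Esr2 were Krt10 (r = 0.99), Cenph (r = 0.98) and Batf3 (r = 0.98). Closest to Hsd3b1 were Commd10, Psmg2 and Akr1c14 (r = 0.99 each). Akr1c14, an aldo-keto reductase of steroids, had 47.7, 16.0, 14.9 and 14.1 in WT and 24.5, 127 and 138 in KO. Its high libraries were KO 2, KO 3 and WT 1, as for Inha. For Hsd17b1 they were Hsdl2, BC022960 and Cep72 (r = 0.98 to 0.99), for Esr1 Cdc20, Zfp385a and Emc3 (0.98 to 0.99), and for Cyp11a1 Med29, Serf2 and Bola2 (0.96 to 0.97). Star was closest to Wac, Arfgef2 and Zbtb33 (0.97 to 0.99), Pgrmc1 to Ube2e2, Nsf and Rabl3 (0.96 to 0.98) and Pgrmc2 to Cers5, Stra6l and N4bp1 (0.98).

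Around these 9 genes, 6 lists of steroid synthesis and response were examined, with 105 tested genes that are not among the 9. Of these 7 rose and 3 fell, together 9.52% beside 6.71% of all tested genes. Among 20 tested further enzymes of steroid synthesis, 2 rose and 0 fell in limma, edgeR and DESeq2 alike. In limma 3.09% of all tested genes rose and 3.63% fell. Of the 20 enzymes, 3 had an unadjusted limma p under 0.05, beside 21.8% of all tested genes. Their median log2 fold change was 0.20. Hsd17b10, a mitochondrial dehydrogenase of fatty acids and steroids, had 446, 476, 350 and 416 in WT 1 to 4 and 619, 1195 and 886 in KO 1 to 3 (1.05 on the log2 scale, SE 0.19; limma adjusted p = 0.00266). All KO libraries were above all WT libraries, with the largest value in KO 2. The call was made in all 7 fits that left out 1 library and was lost with KO 2 and KO 3 both left out (0.56). Hsd17b12, known for elongating fatty acids and reducing estrone, rose from 213 ± 21.3 to 321 ± 36.5 (adjusted p = 0.0337). This call was lost in 5 of the 7 fits that left out 1 library, without WT 1, 2 or 3 or KO 1 or 2 (adjusted p up to 0.125). Cyb5a, the cytochrome b5 that assists several P450 enzymes, had 3145, 2856, 2905 and 2979.7 in WT and 2560.0, 1996 and 2494 in KO. Its groups did not overlap, but the difference did not pass (-0.35 on the log2 scale, SE 0.12; limma adjusted p = 0.0958). Cyp17a1 was at a mean of 1.00 in WT and 1.51 in KO.

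Of 16 genes of cholesterol delivery 1 rose, where 3.09% of all tested genes were higher. It was Soat1, which esterifies cholesterol for storage (480 ± 55.8 and 714 ± 156, limma adjusted p = 0.0444). KO 3, at 535, lay within the WT range of 408 to 537, and the call was lost in 6 of the 7 fits that left out 1 library, all but the one without KO 3 (adjusted p up to 0.182). Stard3 and Stard6 were next by p and did not pass (adjusted p = 0.176 and 0.259). Of 24 genes of cholesterol synthesis 0 passed in limma, 0 in edgeR and 0 in DESeq2. An unadjusted limma p under 0.05 was reached by 5 of the 24, beside 21.8% of all tested genes. The median log2 fold change of this list was 0.22. Cyp51, which removes a methyl group from lanosterol, had 33.4, 24.5, 29.0 and 34.7 in WT and 49.1, 55.5 and 45.9 in KO. All its KO values were above all WT values, at 0.71 on the log2 scale (SE 0.27), which did not pass (limma adjusted p = 0.118). Sc5d, a desaturase of a later sterol step, was also non-overlapping without passing (adjusted p = 0.129), and Srebf1, which encodes a transcription factor of lipid genes, did not pass either (0.159).

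Of 9 tested other steroid receptors and membrane steroid receptors, 2 fell and 0 rose in limma, edgeR and DESeq2 alike. In limma 3.63% of all tested genes fell. An unadjusted limma p under 0.05 was reached by 3 of the 9, beside 21.8% of all tested genes. Those that fell were estrogen-related receptors, orphan nuclear receptors that resemble the estrogen receptors but do not bind estradiol. Esrrb had 2000.1, 1829.8, 1811 and 1693 in WT 1 to 4 and 1209, 1039 and 1369 in KO 1 to 3. Its libraries did not overlap, and its fall by 0.61 on the log2 scale (SE 0.13, limma adjusted p = 0.00725) was called in all 7 fits that left out 1 library. The call was lost with KO 2 and KO 3 both left out (-0.60). Esrrg had 29.6, 30.9, 42.1 and 47.7 in WT and 15.4, 11.8 and 19.7 in KO (log2 fold change -1.21, SE 0.32; adjusted p = 0.0279). Its call was lost without WT 3, WT 4 or KO 2 (adjusted p up to 0.103). Nenf, a secreted relative of the PGRMC proteins, had 12.4, 2.13, 23.4 and 4.33 in WT and 14.5, 20.9 and 26.3 in KO. Its groups overlapped and it did not pass (adjusted p = 0.202). Pgr, the nuclear progesterone receptor, was not analysed here.

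Among 19 receptor chaperones and coregulators 3 rose and 1 fell, where 3.09% of all tested genes rose and 3.63% fell. Fkbp5, a co-chaperone of steroid receptors and a known target of the glucocorticoid receptor, had 221, 212, 251 and 232 in WT and 129.9, 105 and 131 in KO. The groups were well apart (-0.91 on the log2 scale, SE 0.17, limma adjusted p = 0.00337), and the call was made in all 7 fits that left out 1 library. It was lost with KO 2 and KO 3 both left out (-0.81). The chaperones of unliganded receptors Hsp90aa1 (log2 fold change 0.57, adjusted p = 0.00719) and Hsp90ab1 (0.92, adjusted p = 0.0105) rose. Hsp90aa1 was called in all 7 fits that left out 1 library. Without KO 3 the Hsp90ab1 value was close to that of all libraries (0.90) but did not pass (0.107). Both calls were lost with KO 2 and KO 3 left out (0.29 for Hsp90aa1 and 0.42 for Hsp90ab1). Nrip1, a corepressor of estrogen receptors, rose from 130.4 ± 17.8 to 199 ± 16.8 (adjusted p = 0.0475), a call lost whichever library was left out (up to 0.123). Of 20 tested regulators of the ovarian steroid genes, a list that includes Esr1 and Esr2, 1 rose and Esr2 fell. The gene that rose was Nr0b1, a repressor of steroid genes, at 0, 1.07, 0 and 0 in WT and 0.908, 14.5 and 6.56 in KO (adjusted p = 0.0460). Its call was lost in 6 of the 7 fits that left out 1 library, all but the one without KO 1 (adjusted p up to 0.262). Nr0b1 was highest in KO 2 and KO 3, as were 14 of the 23 granulosa markers. With the granulosa covariate its log2 fold change was 1.02 (limma adjusted p = 0.903), in a fit that cannot tell genotype and granulosa RNA apart. Wt1, a transcription factor of the gonads and also one of the granulosa markers, did not pass (adjusted p = 0.0880).

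**Figure D4:**
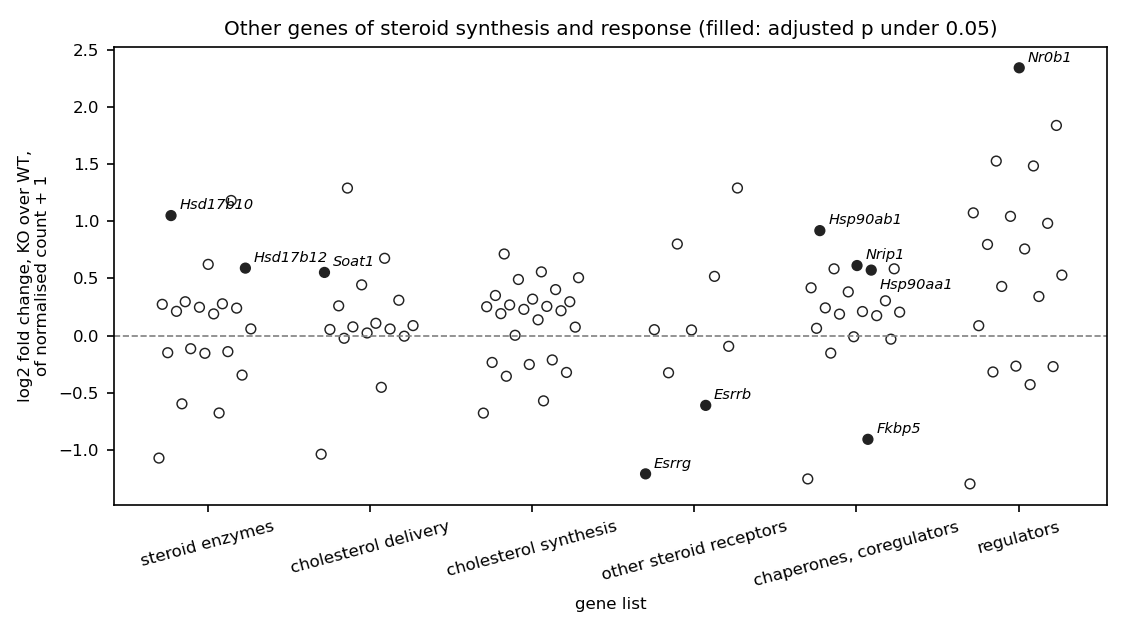
Log2 fold change of KO over WT (y axis) of the 105 tested genes counted in the 6 lists (x axis); filled points passed limma adjusted p under 0.05 and are named. The filled points are 7 above and 3 below 0, with Esrrb, Esrrg and Fkbp5 below.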

How the data were processed

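RNA of 5 oocytes per library was amplified by Smart-Seq2 and sequenced as 75-base paired reads from Nextera XT libraries, which do not keep strand, per the labels' protocols. The submitters' processing notes name cutadapt, FastQC, STAR, DESeq, DESeq2 and the build GRCm38 (mm10); the sources used here do not name the read counter. The deposited values are a normalised signal, gene counts divided by a size factor by the authors: multiplying by 1 factor per library gave whole reads (tolerance 0.05) for at least 99.96% of values. Library totals were 6676076 to 8343915 reads, so a gene at a few reads has a wide counting error.

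WT and KO were compared with limma 3.58.1 (intensity trend, robust variance; R 4.3.3) on log2(value + 1), over the 19227 genes that reached a value of 1 in 3 or more libraries, and p-values were Benjamini-Hochberg adjusted over all of them. On this scale the changes of weakly expressed genes come out too small. edgeR 4.0.16 and DESeq2 1.42.0 were run on the recovered whole reads as alternatives and called 1334 and 1474 genes, beside 1291 for limma. Other alternatives were pseudocounts of 0.5 and 5, other filters, TMM scaling, limma without trend, a replicate block, each library left out, KO 2 and KO 3 left out, and a granulosa marker covariate. The scripts were tested on simulated data. Gene positions and exon lengths are from GENCODE M21: 23734 rows matched by name and start, 1225 by position and 1060 not at all.

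The 9 genes and the lists were chosen with earlier results of these data known. Named beside them are Mfn1 and Mfn2, and in each list the genes past the threshold and the 3 with the smallest p. For each of the 9, the 3 genes of highest Pearson correlation are also named (names of the Gm, Rik or ps type left out). Gdf9, Inha, Cyp17a1, Foxl2, Amh, Fst, Fshr, Inhba, Nr5a2, Cdh2, Slc18a2, C1qb, Cd68 and Csf1r were named after their values were seen. The mouse behind each library is not labelled: the spread that the p-values rest on is that of these libraries and may be technical. RefSeq promoter windows were not used for Hsd17b1 and Star. Some genes of the lists are not reported here, and the list counts leave them out.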

Additional observations from a re-analysis of the deposited data

Results flagged for a closer look

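Hsd3b1 in WT 1, at 44.8 normalised counts, stood far above the other 3 WT libraries, which lay between 6.54 and 9.59. Without WT 1 the log2 fold change of Hsd3b1 was 3.67 (limma adjusted p = 0.132). WT 1 also had the highest Inha (66.7) and Hsd17b1 (8.58) of the WT libraries. Nr0b1 in WT 2, at 1.07 normalised counts, stood apart from 0 in the other 3 WT libraries, but this value is 1 read. The test for a distant sample picks about 1 in 20 groups of 4 by chance.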

How the results depend on the processing

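Cyp19a1 and Esr2 were called as lower with pseudocounts of 0.5 and 5, no filter, the stricter filter, TMM scaling, edgeR and DESeq2. Limma without trend and robust variance called 106 genes in all, 0 of the 9 (5 at an unadjusted p under 0.05) and 0 list genes (20), with Cyp19a1 at -1.23 (adjusted p = 0.0822) and Esr2 at -0.50 (0.211). With KO 2 and KO 3 left out the counts were 130, 0 (3) and 0 (12), with Cyp19a1 at -0.85, Esr2 at -0.49 and Pgrmc2 at 0.0663. With the granulosa covariate they were 0 (1308), 0 (1) and 0 (5), with Cyp19a1 at -0.49, Esr2 at -0.59, Hsd3b1 at -0.40, Pgrmc1 at -0.20, Pgrmc2 at 0.0577, Hsd17b1 at 0.0891, Esr1 at -0.15, Star at 0.98, Hsd17b10 at 0.54, Hsp90aa1 at 0.18, Hsp90ab1 at 0.21, Nr0b1 at 1.02, Cyp51 at 0.42, Nenf at -0.24, Srebf1 at 0.16, Stard6 at -0.0086 and Wt1 at -0.12. The marker mean rises with KO, and Wt1 is itself one of the markers in that mean. The cause of the other changes was not tested.

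Leaving out 1 library at a time gave 604 to 1772 genes, 1 to 3 of the 9 and 5 to 9 list genes (10 with all libraries). Log2 fold changes then ranged from -1.42 to -0.94 for Cyp19a1, -0.62 to -0.37 for Esr2, 1.70 to 2.81 for Hsd17b1, 2.34 to 4.21 for Hsd3b1 and -0.06 to 0.69 for Star (-0.0554 without KO 1, -0.0406 without KO 3). Hsd17b1 passed without a filter (2.20, adjusted p = 0.0111) and Hsd3b1 with DESeq2 (3.38). The stricter filter removed Hsd17b1, Cyp11a1 and Star, so they have no value there.

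Deviations of same-numbered libraries correlated at -0.25, 0.11 and 0.04, so the numbers were not taken as pairs, and WT 4 has no partner. With the replicate number as a block 1022 genes, 1 of the 9 and 7 list genes were called, and Esr2 was at -0.45 (adjusted p = 0.111).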
